A study of Homo sapiens with 12 samples.

Results

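The mitochondrial genome of a human cell encodes 37 genes, and all 37 were in the deposited tables of 58735 genes. They were chosen by chromosome alone, as every gene placed on the mitochondrial chromosome, and comprised 13 mRNAs, 2 ribosomal RNAs (rRNAs) and 22 transfer RNAs (tRNAs). Their positions matched GENCODE release 29 on GRCh38 for 37 of 37. RNA had been sequenced from MDA-MB-231, a triple-negative breast cancer cell line of human origin. The cells carried a guide RNA against UFM1 (sgUFM1), a guide against UFL1 (sgUFL1), or a control guide, with separate control libraries named for each of the 2 targets. UFM1 resembles ubiquitin and is joined covalently to target proteins, a step that needs the ligase UFL1. Each of the 4 groups had 3 libraries. The labels do not state that these were separate cultures, and the p-values cover only how these libraries varied, possibly for technical reasons. The series is described both as a knockdown and as a knockout. The labels do not say whether a group was a single clone or a pool, how long the cells had carried the guide, or whether the RNA was depleted of rRNA or selected for poly(A) tails.

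The count table and the FPKM table disagree on the names of 6 of the 12 libraries. The 3 libraries called sgUFL1 in the count table carry the name of the controls for sgUFM1 in the FPKM table, and they are called set 1 here. The 3 libraries called controls for sgUFM1 in the count table carry the name sgUFL1 in the FPKM table, and they are called set 2 here. Both tables name sgUFM1 and the controls for sgUFL1 alike. UFM1 itself had 37.1, 39.6 and 39.3 CPM in sgUFM1 (CPM are counts scaled to a common library size), against 59.7, 65.7 and 71.2 CPM in the controls for sgUFL1 (log2 difference -0.76, edgeR adjusted p = 0.00255). UFL1 had 16.7, 19.3 and 18.03 CPM in set 1, 12.7, 11.4 and 13.2 CPM in set 2, and 19.8, 24.5 and 30.3 CPM in the controls for sgUFL1. The UFL1 difference from those controls was -0.45 on the log2 scale in set 1 (adjusted p = 0.13) and -1.02 in set 2 (adjusted p = 0.00166). Which name is right was not settled from these levels, and every comparison below is given by set.

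Mitochondrial DNA is transcribed from both strands into long precursor RNAs. Most of the mRNAs and both rRNAs are separated by tRNAs, and cutting out the tRNAs releases the RNAs between them. The mRNAs encode core subunits of respiratory complexes I, III and IV and of ATP synthase, the machinery of oxidative phosphorylation. The remaining subunits and all protein factors that transcribe, process and translate mitochondrial RNA are encoded in the nucleus. In mammals ND4L with ND4, and ATP8 with ATP6, share a single mRNA in which the reading frames overlap.

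Those overlaps bear on how reads can be counted, and the 2 stretches are shown with the shared bases in capitals, read from the GENCODE transcripts of GRCh38, plus strand. The ATP8 and ATP6 reading frames share 46 bases, 22.2% of ATP8, between positions 8527 and 8572, in chrM:8507-8592. The ND4L and ND4 frames share 7 bases, between positions 10760 and 10766, in chrM:10730-10796, where the capitals hold the ATG start of ND4 and the TAA stop of ND4L.
MT-ATP8 and MT-ATP6: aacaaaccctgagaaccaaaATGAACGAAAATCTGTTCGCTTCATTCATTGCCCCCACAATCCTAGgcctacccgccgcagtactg
MT-ND4L and MT-ND4: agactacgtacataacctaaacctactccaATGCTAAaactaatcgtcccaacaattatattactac

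The pair of tRNAs with the most counts, MT-TN (asparagine) and MT-TC (cysteine), lie on the other strand at chrM:5657-5729 and chrM:5761-5826, minus strand. They are printed as transcribed, with the anticodon in capitals. The 31 bases between them are known as the origin of light-strand replication.
MT-TN: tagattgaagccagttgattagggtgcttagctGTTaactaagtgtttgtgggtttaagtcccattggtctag
MT-TC: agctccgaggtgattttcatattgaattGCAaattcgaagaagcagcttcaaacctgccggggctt

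Library totals ran from 15342793 to 18033331 counts. Markers of the line were present in every library, with mean levels of 807 to 977 CPM for VIM and 320 to 434 CPM for EGFR over the 4 groups. The estrogen and progesterone receptor genes ESR1 and PGR stayed at or under 1.16 CPM in each library. ERBB2, also looked at as a gene low in this line, was well above them, with means of 48.8 to 67.4 CPM over the 4 groups. CD3E, a T cell marker, had no counts, and markers of leukocytes, erythrocytes, fibroblasts and endothelium together took at most 0.00183% of counts. Of these markers COL1A1, looked at for fibroblasts, was detected in every library, at 5.54 to 16.1 CPM. Averaged over the counts of a library, transcript GC content ran from 49.8 to 50.3% in sgUFM1 libraries, from 50.3 to 50.5% in set 1, from 50.4 to 50.9% in set 2, and from 48.3 to 49.4% in the controls for sgUFL1. The controls for sgUFL1 therefore lay below the other 9 libraries in GC content. Fits with GC and length offsets are cited where they change a result for a mitochondrial gene.

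The mitochondrial genome took a smaller share of the counts in sgUFM1, set 1 and set 2 than in the controls for sgUFL1. Its 37 genes held 3.12, 3.50 and 3.73% of counts in sgUFM1, 3.89, 3.55 and 3.42% in set 1, 4.003, 3.68 and 3.87% in set 2, and 4.51, 4.55 and 4.76% in the controls for sgUFL1. Each control library for sgUFL1 was above all 9 others, while the other 3 groups overlapped. The same 3 control libraries had the lowest GC content, and its part in the share was not tested. The means were 3.45 ± 0.31% in sgUFM1, 3.62 ± 0.24% in set 1, 3.85 ± 0.16% in set 2 and 4.61 ± 0.13% in the controls for sgUFL1 (SD, n = 3 each). Among the 4 groups the share differed by an exact permutation test over all 15400 assignments (p = 0.00383, adjusted over 3 shares p = 0.00575). In bulk RNA, fewer mitochondrial genomes in a cell and less RNA from each genome cannot be told apart, and neither can fewer cells of a type and less RNA per cell.

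The 13 mRNAs made up most of that share, with 3.17 ± 0.28% of counts in sgUFM1, 3.31 ± 0.17% in set 1, 3.59 ± 0.14% in set 2 and 4.14 ± 0.10% in the controls for sgUFL1 (exact permutation p = 0.0024, adjusted p = 0.00575). The 2 rRNAs held 0.261 ± 0.028% in sgUFM1, 0.291 ± 0.079% in set 1, 0.246 ± 0.021% in set 2 and 0.449 ± 0.093% in the controls for sgUFL1 (exact permutation p = 0.0309, adjusted p = 0.0309). That call for the rRNAs rested on single libraries: it was lost without sgUFM1 replicate 2, set 2 replicate 2 or 3, or control replicate 1 or 3 (exact permutation adjusted p = 0.0501 to 0.0637). The 22 tRNAs held 0.0179 ± 0.0006% in sgUFM1, 0.0185 ± 0.0025% in set 1, 0.0155 ± 0.0012% in set 2 and 0.0166 ± 0.0065% in the controls for sgUFL1, where single libraries ran from 0.0108 to 0.0237% and spanned all the others.

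**Figure D1:**
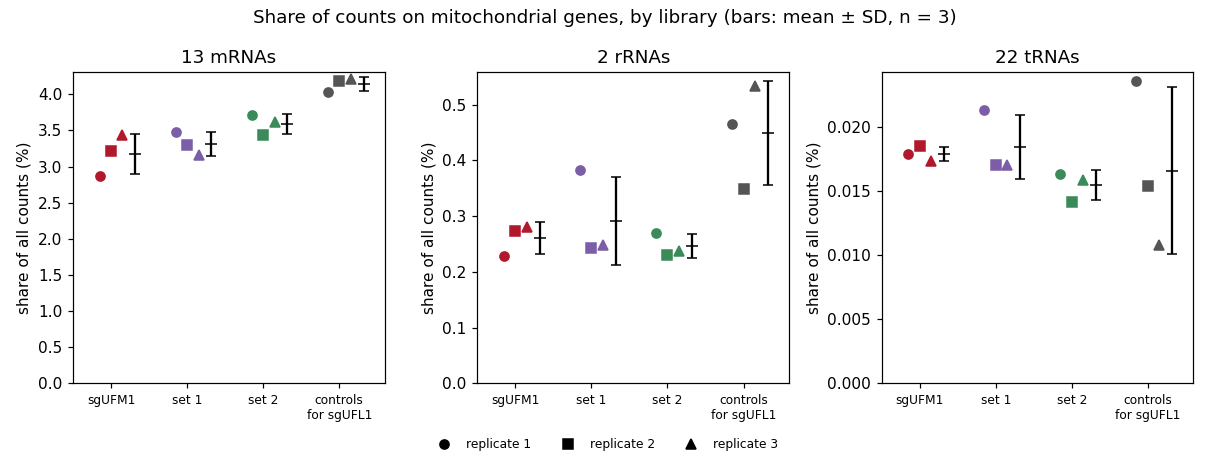
Share of all counts on the 13 mRNAs, 2 rRNAs and 22 tRNAs of the mitochondrial genome in each library, in percent, with mean ± SD over 3 libraries per group. The mRNA share is 4.03 to 4.22% in the controls for sgUFL1, above the 2.88 to 3.72% of the other 9 libraries, and the tRNA shares of the controls span the range of the other groups.

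Levels per length spanned a wide range within this one genome. With CPM divided by gene length in kilobases, the mean over the 12 libraries was highest for CO1, a core subunit of complex IV, at 6503 CPM per kilobase. CO2 (5353) and CO3 (5066), the other mitochondrial subunits of complex IV, and ATP6 (4490.1) of ATP synthase followed. Among complex I subunits the order was ND4L (4177), ND4 (3797), ND2 (2699.97), ND3 (2078), ND1 (1949.9), ND5 (684) and ND6 (529.6), all in CPM per kilobase. ND6 is the sole mRNA made from the other strand. The large rRNA, RNR2, stood at 1750.4 CPM per kilobase, CYB of complex III at 1234, the small rRNA, RNR1, at 391 and ATP8 at 90.6. Ranges over single libraries overlapped between all neighbours in this order except CYB (1003 to 1581) with ND5 (578 to 789), and RNR1 (253 to 551) with ATP8 (57.8 to 132). The order also turned between groups, and the pairs that follow are examples. ND4 was above ND4L in set 2 (4232 against 3526 CPM per kilobase). ND1 was above ND3 in sgUFM1 (1830 against 1693) and in the controls for sgUFL1 (2230 against 2135). RNR2, at 2529 in those controls, was above both ND1 and ND3 there. In set 1, CO3 was above CO2 (4962 against 4857). Within the mRNAs CO1 alone took 25.9 to 33.3% of the counts, and ND4 took 13.3 to 16.6%.

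ATP8 was far below its partner, at 0.0142 to 0.0263 times the level of ATP6 per length in the 12 libraries. Its counts per library were 194 to 449, against 40576 to 64291 for ATP6. Whether reads in the shared 46 bases were left uncounted is not given in the sources used here, and their part in this ratio was not tested.

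**Figure D2:**
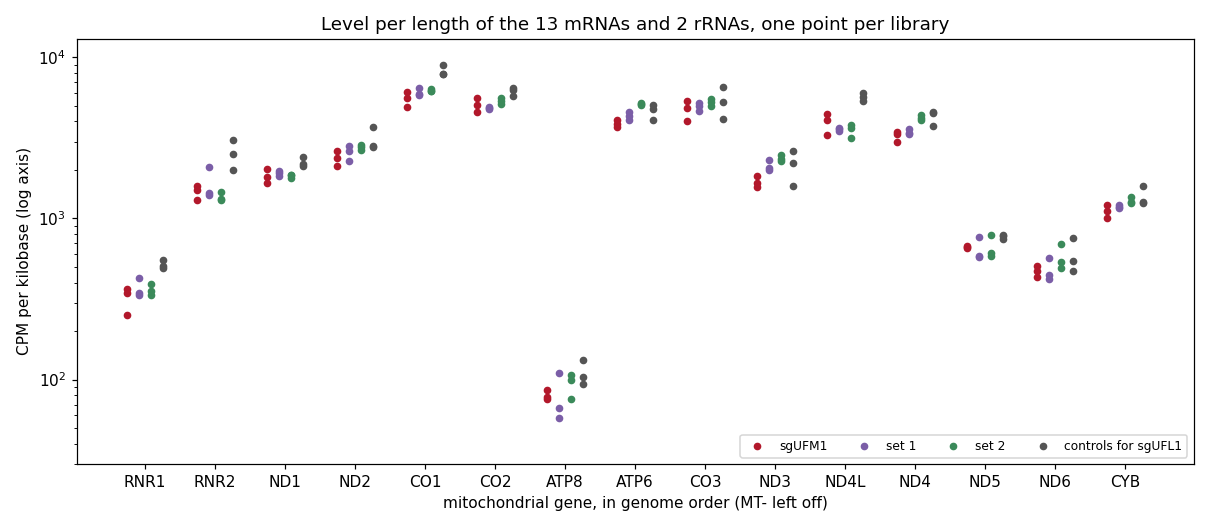
Level of the 13 mRNAs and 2 rRNAs in each library, in CPM per kilobase on a log axis, in genome order and coloured by group. CO1 is highest on average and ATP8 lowest, and for RNR1, ND1, CO1, CO2 and ND4L all 3 controls for sgUFL1 lie above the other 9 libraries.

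Of the 37 members, 28 passed the filter on low counts over all 12 libraries, namely the 13 mRNAs, the 2 rRNAs and 13 tRNAs. The other 9 tRNAs (TF, TQ, TM, TW, TA, TS1, TD, TK and TS2) had at most 13 counts in any library and were not tested. In the test for any difference among the 4 groups, which does not depend on the exchanged names, 11 of the 28 passed an adjusted p of 0.05, where 41.5% of the 15821 genes tested did. They were ND4L (adjusted p = 0.000642), CO1 (0.00152), ND4 (0.00576), ATP6 (0.0148), CO2 (0.0298), ND1 (0.042), both rRNAs (0.00168 for RNR2 and 0.00342 for RNR1) and the tRNAs TP, TL2 and TY (0.00197, 0.0173 and 0.0301). The members' share was close to that of all genes. Several of these calls rested on single libraries. ND1 was lost without sgUFM1 replicate 2, set 1 replicate 2 or 3, any set 2 library, or control replicate 1 or 2 (adjusted p = 0.0503 to 0.156), and CO2 without replicate 2 or 3 of set 1, set 2 or the controls (0.0521 to 0.0733). ATP6 was lost without sgUFM1 replicate 1 or 2 or set 2 replicate 3 (0.0535 to 0.0559), and TY without sgUFM1 replicate 2, set 2 replicate 2, or control replicate 2 or 3 (0.0503 to 0.125). With GC and length offsets CO2 and TP were lost (adjusted p = 0.064 and 0.0895).

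ND4L, the complex I subunit with the smallest of these p-values, separated the controls for sgUFL1 from all other libraries. It had 981, 1217 and 1319.7 CPM in sgUFM1, 1030.3, 1082 and 1066 CPM in set 1, 1085, 936 and 1121 CPM in set 2, and 1592, 1777 and 1679 CPM in the controls for sgUFL1. The lowest control library for sgUFL1 was above the highest of the other 9, and the other 3 groups overlapped. CO1 showed the same separation, with 7573, 8594 and 9371 CPM in sgUFM1, 9963, 9169 and 9004 CPM in set 1, 9468, 9457 and 9744 CPM in set 2, and 12156, 12068 and 13762 CPM in the controls for sgUFL1.

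RNR1 did so too, at 241, 349 and 331 CPM in sgUFM1, 405, 321 and 327 CPM in set 1, 373, 321 and 337 CPM in set 2, and 526, 481 and 467 CPM in the controls for sgUFL1. RNR2 had 2015, 2346 and 2481 CPM in sgUFM1, 3255, 2189 and 2253 CPM in set 1, 2281, 2029.7 and 2069 CPM in set 2, and 3938, 3129.9 and 4761 CPM in the controls for sgUFL1. Here set 1 replicate 1 reached above control replicate 2, and the 3 controls themselves differed widely.

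ND4, which shares its mRNA with ND4L, was ordered differently. It had 4077, 4579.9 and 4719.8 CPM in sgUFM1, 4664, 4966 and 4612 CPM in set 1, 6072, 5655 and 5769 CPM in set 2, and 5149, 6215 and 6309.7 CPM in the controls for sgUFL1. Set 2 and the controls for sgUFL1 overlapped at the higher level, and sgUFM1 and set 1 overlapped at the lower one. The ratio of ND4L to ND4 per length was 1.12, 1.23 and 1.30 in sgUFM1, 1.02, 1.01 and 1.07 in set 1, 0.829, 0.768 and 0.901 in set 2, and 1.43, 1.33 and 1.23 in the controls for sgUFL1. The 3 lowest ratios were those of set 2, and the controls for sgUFL1 overlapped with sgUFM1; this ratio was picked after its values were seen, so no test is given for it.

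ATP6 had 2526, 2610.25 and 2787 CPM in sgUFM1, 2778, 3130.5 and 2926 CPM in set 1, 3516, 3431 and 3524 CPM in set 2, and 2778, 3418 and 3267 CPM in the controls for sgUFL1, so the highest libraries were those of set 2. ND3, a small complex I subunit, had 577, 542 and 639 CPM in sgUFM1, 689, 796 and 715 CPM in set 1, 789, 809.9 and 858 CPM in set 2, and 759, 909 and 548 CPM in the controls for sgUFL1. The controls for sgUFL1 covered nearly the whole range of ND3, with replicate 3 lowest.

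The guide against UFM1 was compared first with the controls for sgUFL1, the sole guide and control groups that both tables name alike. CO1 (log2 difference -0.58 ± 0.12 SE, adjusted p = 0.0142), ND4L (-0.52 ± 0.13, adjusted p = 0.023), RNR1 (-0.68 ± 0.14, adjusted p = 0.01) and RNR2 (-0.79 ± 0.15, adjusted p = 0.0079) were lower in sgUFM1. Of the tRNAs, TP for proline was lower (-0.67 ± 0.13, adjusted p = 0.00981) and TY for tyrosine was higher (1.36 ± 0.40, adjusted p = 0.0498). These were 6 of the 24 members tested, where 10.0% of 15035 genes were called, 4.43% lower and 5.57% higher. The median log2 difference of the 13 mRNAs was -0.33, against -0.00 over all genes tested. The other 11 mRNAs did not pass, with ND4 nearest at -0.40 ± 0.12 (adjusted p = 0.0532) and CO3 farthest at -0.17 ± 0.16 (adjusted p = 0.538). All 6 calls were lost without sgUFM1 replicate 1, with adjusted p between 0.0583 and 0.218, and 2 of them, the rRNAs, remained without sgUFM1 replicate 2. TY was also lost without controls for sgUFL1 replicate 3 (adjusted p = 0.126) and with GC and length offsets (adjusted p = 0.0642), which moved TP to -0.43 (adjusted p = 0.0441).

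Set 1, named sgUFL1 in the count table, was compared with the same controls for sgUFL1, and the comparisons that follow share these control libraries. ND4L was lower in set 1 (-0.65 ± 0.11, adjusted p = 0.0487) and was the sole call among 25 members tested, where 1.10% of 14996 genes were called and 0.0200% were called lower. CO1 stood at -0.42 ± 0.12 (adjusted p = 0.0841), RNR1 at -0.47 ± 0.12 (adjusted p = 0.0746) and RNR2 at -0.61 ± 0.19 (adjusted p = 0.0983). The median of the 13 mRNAs was -0.25, against -0.01 over all genes. The ND4L call was near the threshold: it was lost with RLE scaling (adjusted p = 0.0527), with GC and length offsets (-0.56, adjusted p = 0.185), and without set 1 replicate 2 or 3 or control replicate 1 or 3 (adjusted p = 0.0793 to 0.247). Other settings called more members: 5 with DESeq2, 6 with no low-count filter, 7 in the 12-library model, 3 without set 1 replicate 1 and 4 without control replicate 2.

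Set 2, named sgUFL1 in the FPKM table, gave 7 calls among 25 members against the controls for sgUFL1, where 35.8% of 15175 genes were called, 18.4% lower and 17.4% higher. RNR2 (-0.91 ± 0.14, adjusted p = 0.00126), RNR1 (-0.53 ± 0.11, adjusted p = 0.00359), ND4L (-0.70 ± 0.11, adjusted p = 0.00135), CO1 (-0.43 ± 0.10, adjusted p = 0.00796) and ND1 (-0.30 ± 0.10, adjusted p = 0.0376) were lower in set 2. TP was lower (-0.57 ± 0.14, adjusted p = 0.00725) and TY higher (1.48 ± 0.38, adjusted p = 0.0101). ATP6 (0.13 ± 0.11) and ND3 (0.13 ± 0.15) had differences above 0 and did not pass, at adjusted p of 0.392 and 0.52. The median of the 13 mRNAs was -0.19, against -0.03 over all genes, and -0.03 against -0.01 with GC and length offsets. With those offsets TP was at -0.06 (adjusted p = 0.775) and the number of genes called fell to 1070, against 5438 without them. CO1 and TY were lost without set 2 replicate 2 (adjusted p = 0.056 and 0.0683), TP without set 2 replicate 3 (0.0533), and ND1 without any 1 of the set 2 libraries or without control replicate 1 (0.0596 to 0.184). ND1 was also lost with no low-count filter (0.103) and with scaling computed without the mitochondrial genes (0.0624).

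**Figure D3:**
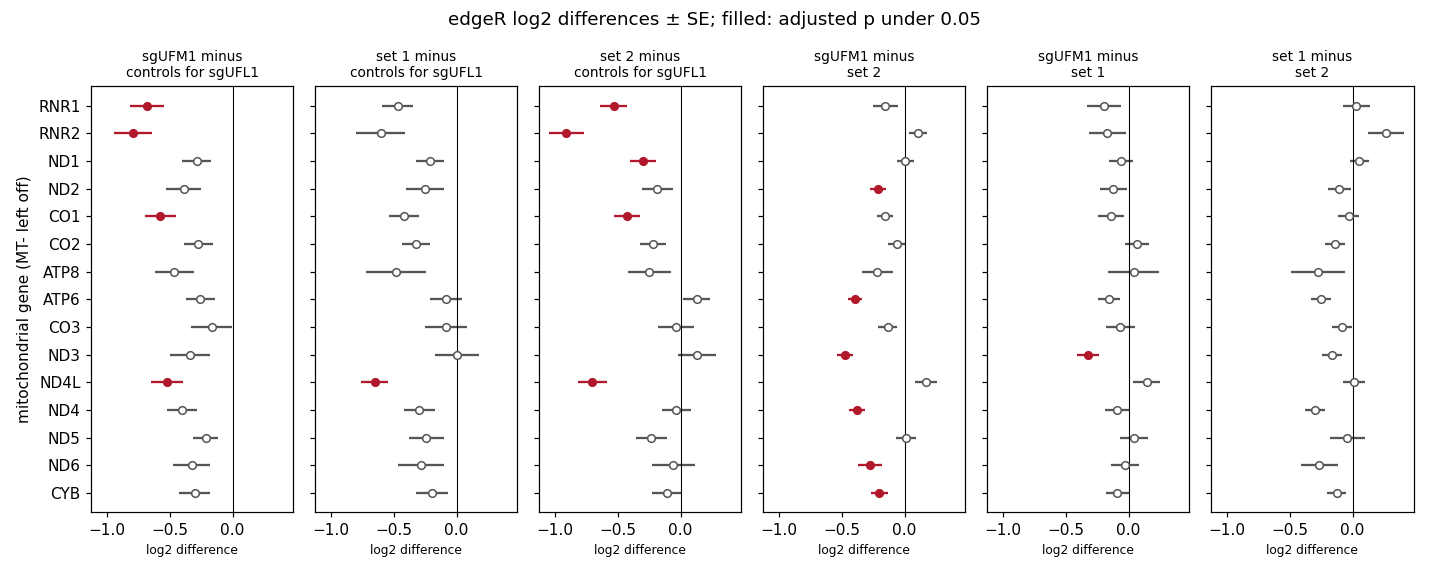
Log2 difference ± SE of the 13 mRNAs and 2 rRNAs in the 6 pairwise comparisons from edgeR, with filled red points for an adjusted p under 0.05. In the 3 comparisons with the controls for sgUFL1, ND4L is the gene called each time, and in sgUFM1 against set 2 the calls fall on ND2, ATP6, ND3, ND4, ND6 and CYB.

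A different group of mRNAs passed when sgUFM1 was compared with set 2, which are controls for sgUFM1 by the count table's names. ND3 (-0.47 ± 0.06, adjusted p = 1.19e-05), ATP6 (-0.39 ± 0.06, adjusted p = 1.97e-05), ND4 (-0.38 ± 0.06, adjusted p = 7.53e-05), ND6 (-0.28 ± 0.10, adjusted p = 0.0259), ND2 (-0.21 ± 0.07, adjusted p = 0.0161) and CYB (-0.20 ± 0.07, adjusted p = 0.0226) were lower in sgUFM1. The tRNAs TN (0.39 ± 0.09, adjusted p = 0.00214) and TL1, for leucine (0.49 ± 0.15, adjusted p = 0.0157), were higher. These were 8 of 25 members, where 37.8% of 15083 genes were called, 18.5% lower and 19.3% higher, and the median of the 13 mRNAs was -0.20 against 0.01. ND4L stood at 0.17 ± 0.09 (adjusted p = 0.126), RNR2 at 0.11 ± 0.07 (adjusted p = 0.245) and CO1 at -0.16 ± 0.06 (adjusted p = 0.061). In a model over all 12 libraries ND3, ATP6, ND4 and TL1 passed, while ND2, CYB, ND6 and TN did not (adjusted p = 0.162 to 0.36). ND2, CYB, ND6 and TL1 were lost on leaving out single libraries: ND2 and CYB without sgUFM1 replicate 1 or 2 and ND2 also without set 2 replicate 3 (adjusted p = 0.0607 to 0.145), ND6 without sgUFM1 replicate 2 or 3 or set 2 replicate 1 (0.0831 to 0.147), and TL1 without sgUFM1 replicate 2 or 3 or set 2 replicate 2 or 3 (0.0553 to 0.092). GC and length offsets moved TL1 to 0.29 (adjusted p = 0.101) and TN to 0.25 (adjusted p = 0.00565), and DESeq2 gave ND6 an adjusted p of 0.192.

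Against set 1, the libraries that the FPKM table names as controls for sgUFM1, ND3 was the sole call among 24 members (-0.32 ± 0.09, adjusted p = 0.0469), where 9.72% of 14977 genes were called. The median of the 13 mRNAs was -0.06 and that of all genes -0.01. The ND3 call was lost with scaling computed without the mitochondrial genes (0.0543), in the 12-library model (0.183), and on leaving out any library but set 1 replicate 1 (0.0919 to 0.243). Without set 1 replicate 1 the number of members called was 7, 4 lower and 3 higher in sgUFM1. ATP6 (-0.16 ± 0.09) and ND4 (-0.09 ± 0.09) did not pass here, at adjusted p of 0.298 and 0.589.

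Between set 1 and set 2, 0 of 26 members passed in edgeR, where 2.20% of 15033 genes did, 0.705% higher and 1.49% lower in set 1. An unadjusted p under 0.05 was reached by 4 members, and DESeq2 called 2. The median of the 13 mRNAs was -0.13, against 0.01 over all genes, and ND4 had the smallest adjusted p at -0.30 ± 0.08 (adjusted p = 0.0775).

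CO2, which passed in the test among the 4 groups, averaged 3477 ± 360.3 CPM in sgUFM1, 3322 ± 42.8 CPM in set 1, 3654 ± 153 CPM in set 2 and 4195 ± 255 CPM in the controls for sgUFL1 (SD, n = 3 each). CO3 averaged 3721 ± 531 CPM in sgUFM1, 3889.9 ± 218 CPM in set 1, 4113 ± 232 CPM in set 2 and 4165 ± 942 CPM in the controls for sgUFL1. ND5, the longest mRNA at 1812 bases, averaged 1201 ± 18.8 CPM in sgUFM1, 1166 ± 199 CPM in set 1, 1198 ± 197 CPM in set 2 and 1391 ± 44.3 CPM in the controls for sgUFL1. ND1 averaged 1749 ± 173 CPM in sgUFM1, 1823 ± 57.9 CPM in set 1, 1752 ± 44.5 CPM in set 2 and 2131 ± 149.7 CPM in the controls for sgUFL1. ND2 averaged 2467 ± 255 CPM in sgUFM1, 2683 ± 285 CPM in set 1, 2875 ± 87.8 CPM in set 2 and 3228 ± 537 CPM in the controls for sgUFL1. For CO2 and ND1 the 3 controls were above the other 9 libraries, and for ND2 the groups overlapped. CYB, the cytochrome b of complex III, averaged 1266 ± 119.8 CPM in sgUFM1, 1346 ± 27.0 CPM in set 1, 1465 ± 68.3 CPM in set 2 and 1558 ± 214 CPM in the controls for sgUFL1. ND6 averaged 248 ± 19.9 CPM in sgUFM1, 252 ± 41.5 CPM in set 1, 302 ± 56.1 CPM in set 2 and 310.3 ± 77.1 CPM in the controls for sgUFL1. ATP8 averaged 16.6 ± 1.1 CPM in sgUFM1, 16.1 ± 5.7 CPM in set 1, 19.5 ± 3.4 CPM in set 2 and 22.8 ± 4.0 CPM in the controls for sgUFL1. CO3, ND5 and ATP8 passed in no comparison, among the 4 groups or between any 2.

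Single libraries departed from their group in several members. Set 1 replicate 1 was above set 1 replicates 2 and 3 in RNR2, RNR1, ND5 and ND6, with 1395 CPM of ND5 against 1048 and 1054 CPM. That library also stood apart in nuclear genes looked at as markers of the line. It had 412 CPM of CD44 against 698 and 709 CPM, and 182 CPM of CAV1 against 302 and 305 CPM. EGFR differed less, at 404 CPM against 437 and 443 CPM. Among the controls for sgUFL1, replicate 3 was lowest in CO3, ND3, TN and TC and highest in RNR2 and ND6. For CO3, TN, TC and RNR2 the values were spread over all 3 libraries. The median coefficient of variation over the 13 mRNAs was 9.47% in sgUFM1, 5.61% in set 1, 4.35% in set 2 and 10.9% in the controls for sgUFL1.

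Ratios within the genome ask whether the classes of transcript kept their proportions. The rRNA counts were 0.0820 ± 0.0028 times the mRNA counts in sgUFM1, 0.0875 ± 0.0196 times in set 1, 0.0684 ± 0.0037 times in set 2 and 0.108 ± 0.022 times in the controls for sgUFL1 (exact permutation p = 0.0304, adjusted over 6 ratios p = 0.182). ND6 over the 12 mRNAs of the opposite strand was 0.007995 ± 0.00129 in sgUFM1, 0.00762 ± 0.001265 in set 1, 0.00843 ± 0.00153 in set 2 and 0.00763 ± 0.00197 in the controls for sgUFL1 (exact permutation adjusted p = 0.864). In sgUFM1, set 1 and set 2 replicate 1 had the highest ND6 ratio, at 0.00948, 0.00908 and 0.0101. The promoter-distal genes CYB and ND5 over the promoter-proximal ND1 and ND2 gave 0.587 ± 0.033 in sgUFM1, 0.561 ± 0.083 in set 1, 0.575 ± 0.054 in set 2 and 0.553 ± 0.036 in the controls for sgUFL1 (adjusted p = 0.864). RNR1 over RNR2, complex I over complex IV mRNAs, and tRNAs over mRNAs each had an adjusted p of 0.294, so none of the 6 ratios passed after adjustment; tRNAs over mRNAs reached 0.00351 without controls for sgUFL1 replicate 1.

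**Figure D4:**
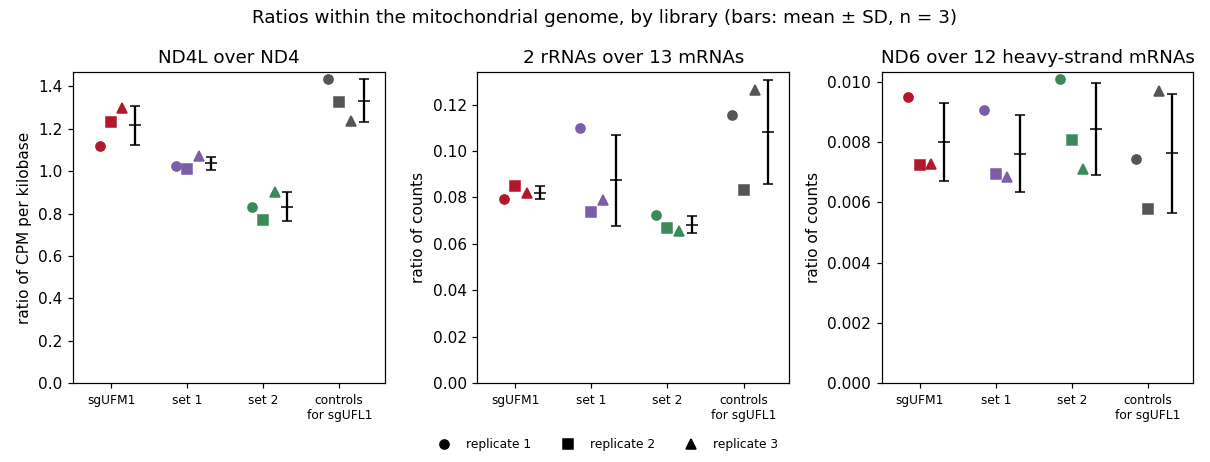
Ratios within the mitochondrial genome in each library, with mean ± SD over 3 libraries per group: ND4L over ND4 per length, rRNA over mRNA counts, and ND6 over the 12 mRNAs of the other strand. Set 2 has the lowest ND4L ratios, 0.768 to 0.901, and the ND6 ratios of the 4 groups overlap.

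The tRNA signal came from few genes. TN, TC and TP held 85.4% of the 33346 counts on tRNAs over the 12 libraries, and the 14 tRNAs of the strand that carries most mRNAs held 11.5%. Each tRNA gene spans 59 to 75 bases. How a read that covers neighbouring genes was counted is not given in the sources used here, and whether these counts come from mature tRNAs or from precursors was not tested.

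TN had 83.0, 87.6 and 91.5 CPM in sgUFM1, 96.0, 74.4 and 78.2 CPM in set 1, 71.2, 56.4 and 73.9 CPM in set 2, and 123, 76.1 and 36.5 CPM in the controls for sgUFL1. TC had 45.7, 45.2 and 36.8 CPM in sgUFM1, 53.9, 51.8 and 48.3 CPM in set 1, 37.1, 42.0 and 48.9 CPM in set 2, and 48.7, 31.7 and 16.8 CPM in the controls for sgUFL1. For both neighbours the control libraries alone covered nearly the whole range, with replicate 1 high and replicate 3 low; sgUFM1 lay above set 2 for TN and overlapped it for TC.

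TP had 18.2, 19.3 and 22.2 CPM in sgUFM1, 23.5, 27.0 and 26.4 CPM in set 1, 23.7, 21.0 and 20.1 CPM in set 2, and 29.97, 29.9 and 35.3 CPM in the controls for sgUFL1. All 3 controls were above the other 9 libraries. TY had 7.22, 6.05 and 3.11 CPM in sgUFM1, 5.49, 3.72 and 3.68 CPM in set 1, 5.25, 8.67 and 4.05 CPM in set 2, and 3.39, 1.95 and 0.992 CPM in the controls for sgUFL1. For TY the controls were the lowest on average, with sgUFM1 replicate 3 below control replicate 1, on 16 to 153 counts per library.

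TL1 had 9.67, 11.8 and 12.9 CPM in sgUFM1, 8.76, 10.3 and 9.17 CPM in set 1, 9.52, 7.82 and 7.28 CPM in set 2, and 10.53, 11.4 and 10.8 CPM in the controls for sgUFL1. Every sgUFM1 library was above every set 2 library. RN7SL2, a small nuclear-encoded RNA of the signal recognition particle, also varied between these libraries. It had 130.2, 60.9 and 39.7 CPM in sgUFM1, 66.5, 84.9 and 46.6 CPM in set 1, 226, 184 and 281 CPM in set 2, and 48.6, 20.3 and 13.3 CPM in the controls for sgUFL1. Like TY it was lowest on average in the controls, and within sgUFM1 and the controls replicate 3 was the lowest for RN7SL2, TY and TC. The part of such variation in the tRNA differences was not tested. The other 8 tRNAs that passed the filter were sparse: TH had 3 to 88 counts per library, TG 11 to 47, TR 6 to 37, TI 3 to 20, and TV, TL2, TE and TT at most 15. TL2 passed among the 4 groups on 0 to 15 counts per library, a call lost without controls for sgUFL1 replicate 3 (adjusted p = 0.061).

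**Figure D5:**
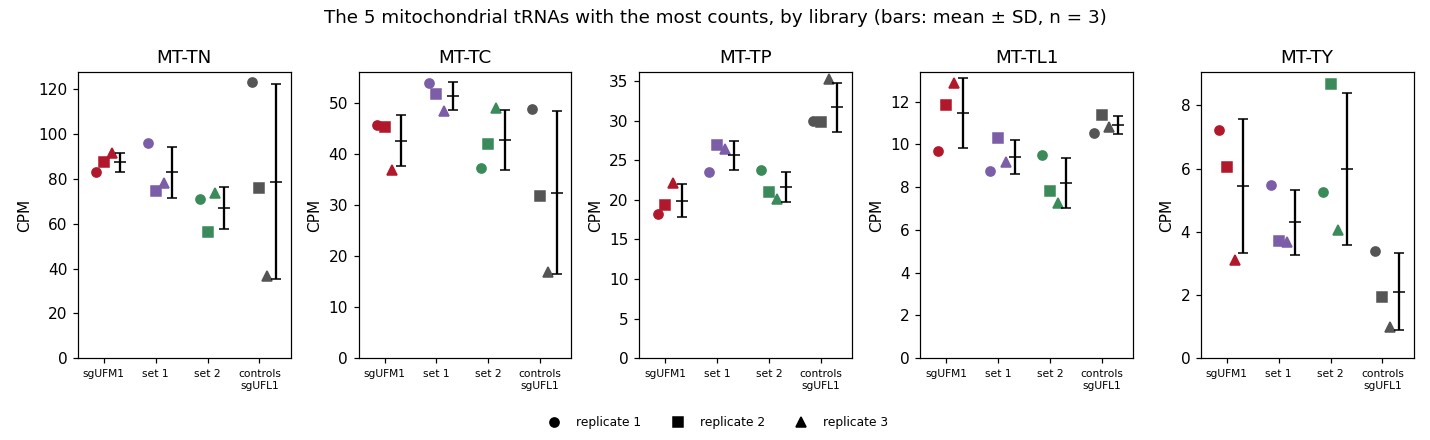
CPM of the 5 mitochondrial tRNAs with the most counts in each library, with mean ± SD over 3 libraries per group. TP is highest in the controls for sgUFL1 at 29.9 to 35.3 CPM, the mean of TY is lowest there, and TN and TC spread most within those controls.

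Copies of mitochondrial DNA in the nuclear genome can share reads with the true genes, and 407 genes of the table carry names of such copies. MTATP6P1, MTND2P28 and MTCO1P12 held 99.4% of their counts. They lie in a stretch of chromosome 1 that holds 7 of the copies in mitochondrial order, at chr1:633696-634376, chr1:629640-630683 and chr1:631074-632616, plus strand, and are 98.5, 98.4 and 98.7% identical to ATP6, ND2 and CO1, with identical runs of up to 141, 266 and 245 bases. Their counts came to 6.2 to 12.2% of ATP6, 7.46 to 9.27% of ND2 and 0.381 to 0.835% of CO1. MTATP8P1 in the same stretch had 0 counts in all libraries, and the copies together came to 1.13 to 1.57% of the mitochondrial counts.

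MTCO1P12 did not follow CO1. It had 48.7, 40.2 and 43.6 CPM in sgUFM1, 51.0, 65.6 and 53.7 CPM in set 1, 79.1, 77.9 and 69.6 CPM in set 2, and 54.1, 54.3 and 52.4 CPM in the controls for sgUFL1. Set 2 was above all other libraries, with a log2 difference of 0.48 ± 0.11 from the controls for sgUFL1 (edgeR adjusted p = 0.00587), where CO1 was lower; sgUFM1 was lower than set 2 by a log2 difference of -0.77 ± 0.09 (adjusted p = 1.21e-06). How reads that match both genomes were assigned is not given in the sources used here, so the split of reads between ATP6, ND2 or CO1 and their copies is uncertain.

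The nuclear genes that maintain and express the mitochondrial genome showed no single direction. Of 63 such genes, all tested, 9 were higher and 14 lower in set 2 than in the controls for sgUFL1, and 8 were higher and 15 lower in sgUFM1 than in set 2, beside the 17.4 and 18.4%, and 19.3 and 18.5%, of all genes given above. In sgUFM1 against the controls for sgUFL1 the 1 gene called was MTERF3, which is a negative regulator of mitochondrial transcription in mice and was lower (-0.79 ± 0.16, adjusted p = 0.00981). In set 1 against those controls the 1 gene called was POLRMT, the mitochondrial RNA polymerase, which was higher (0.54 ± 0.10, adjusted p = 0.0487), where 1.08% of all genes were called higher. Against set 1, sgUFM1 had 1 higher and 4 lower, where 4.57% and 5.15% of all genes were called.

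POLRMT had 102, 100.4 and 93.6 CPM in sgUFM1, 143, 137 and 139 CPM in set 1, 137, 164 and 156 CPM in set 2, and 101, 96.6 and 92.7 CPM in the controls for sgUFL1. The libraries of both sets lay above all the others. MTERF3 had 14.0, 16.6 and 12.2 CPM in sgUFM1, 23.1, 15.7 and 17.8 CPM in set 1, 13.8, 14.1 and 15.9 CPM in set 2, and 23.2, 22.4 and 28.4 CPM in the controls for sgUFL1. POLG, the catalytic subunit of the mitochondrial DNA polymerase, and TOP1MT, the mitochondrial topoisomerase, were higher in set 2 than in the controls for sgUFL1 (0.53 ± 0.11 and 0.57 ± 0.16, adjusted p = 0.00375 and 0.0151). Both were lower in sgUFM1 than in set 2 (-0.40 ± 0.07 and -0.60 ± 0.10, adjusted p = 0.000304 and 6.42e-05). The values of nuclear genes given here are without GC and length offsets, and the part of GC content in them was not tested. SLIRP, which stabilises mitochondrial mRNAs together with LRPPRC, was lower in sgUFM1 than in set 2 (-0.46 ± 0.08, adjusted p = 0.000103) and than in set 1 (-0.33 ± 0.09, adjusted p = 0.0439). RRM2B, a ribonucleotide reductase subunit, was higher in sgUFM1 than in set 2 (0.51 ± 0.10, adjusted p = 0.000751). It was also lower in set 2 than in the controls for sgUFL1 (-0.56 ± 0.14, adjusted p = 0.00791). Between sgUFM1 and those controls it did not pass (-0.05 ± 0.13, adjusted p = 0.833).

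A list of 45 core nuclear subunits of the same respiratory complexes, not all of their subunits, was also read. In sgUFM1 against set 2, 30 of the 45 were lower, where 18.5% of all genes were called lower. These were all the genes of the list called, and the median was -0.32 against 0.01 over all genes. By complex the lower ones were 7 of 11 for complex I, 7 of 9 for complex III, 7 of 10 for complex IV and 9 of 15 for ATP synthase. NDUFA4 was counted under complex I. Against set 1, the 11 called genes were lower in sgUFM1, where 5.15% of all genes were. In set 2 against the controls for sgUFL1, 20 of 45 were higher and 2 lower (median 0.23 against -0.03), beside 17.4 and 18.4% of all genes. The 3 mitochondrial mRNAs called in that comparison were lower. The other comparisons called few: 2 of 45 were lower in sgUFM1 than in those controls (4.43% of all genes), 2 higher in set 1 than in them (1.08%), and 1 lower in set 1 than in set 2 (1.49%).

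CYC1, the cytochrome c1 of complex III, had 223, 208 and 212 CPM in sgUFM1, 266, 298 and 298 CPM in set 1, 334, 409.8 and 389 CPM in set 2, and 203, 229.7 and 191 CPM in the controls for sgUFL1. Set 2 was highest without overlap, at -0.81 ± 0.07 for sgUFM1 against set 2 (adjusted p = 3.7e-08) and 0.84 ± 0.12 for set 2 against the controls (adjusted p = 0.000738). In sgUFM1 against set 2, NDUFV1 and NDUFS8 of complex I differed by -0.71 ± 0.08 and -0.48 ± 0.07, UQCR10 of complex III by -0.60 ± 0.09, COX6A1 of complex IV by -0.70 ± 0.11 and ATP5MF of ATP synthase by -0.59 ± 0.08, all called. The same genes were all called higher in set 2 than in the controls for sgUFL1, by 0.43 (NDUFS8) to 1.19 (COX6A1). None of them was called in sgUFM1 against those controls, at -0.13 (NDUFV1) to 0.49 (COX6A1). The mean GC content of the libraries moved with these groups, and its part in the list counts and in these single-gene differences was not tested.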

How the data were processed

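RNA of 12 MDA-MB-231 libraries, 3 in each of 4 groups, was described by a table of read counts per gene and a table of FPKM, both deposited by the authors. The submitters' processing notes name fastp 0.20.1, STAR 2.7.7a and featureCounts 2.0.0 with GRCh38 (hg38), without roles or settings; neither strand, nor the treatment of reads with several matches, nor rRNA depletion or poly(A) selection is stated there or in the labels. The authors' FPKM values scale counts by gene length and library size. They were used here to match columns and, as an alternative to counts, to recompute the shares and ratios. Over 12320 genes with at least 20 counts, each FPKM column had 1 count column with an SD of the log2 ratio of at most 6.46e-10, against at least 0.193 for the next best, and 6 of 12 matches joined different group names. The sets take their libraries from the count columns, and 0 columns belonged to other series.

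The deposited counts were tested with edgeR 4.0.16 in R 4.3.3 (quasi-likelihood F-test, filterByExpr, TMM), separately for the 6 pairs of groups and once over all 12 libraries, with Benjamini-Hochberg adjustment over all genes tested and a threshold of 0.05. Standard errors are the log2 difference over the square root of F. CPM uses library size times the TMM factor of the 12-library fit, and levels per kilobase use the deposited gene length. Shares and ratios were tested on the log2 scale with the exact permutation test over all 15400 assignments, whose smallest possible p is 6.5e-05. The scripts were tested on simulated data. Depth was 15342793 to 18033331 counts a library; genes with few counts, such as most tRNAs, carry the largest errors. Alternatives for the single-gene tests were RLE scaling, TMM without mitochondrial genes, no low-count filter, DESeq2 1.42.0 and a replicate block. Further ones were GC and length offsets (lowess, span 0.3), 1 model over 12 libraries, and leaving out each library. The shares and ratios were recomputed with the block, without each library and from FPKM, among other settings.

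All 37 members were described; mRNAs and rRNAs were named throughout, tRNAs where they passed the filter over 12 libraries, and up to 6 called genes per nuclear list by smallest p. The members and the lists were chosen with earlier results of these data known. Of 64 symbols in the mitochondrial expression list, 63 were matched to a gene of the table, some under another name. FASTKD4 was not matched, and whether that gene is in the table under another name was not checked.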

Additional observations from a re-analysis of the deposited data

How the results depend on the processing

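No member called in a pairwise comparison turned its direction there under any alternative run. Among the 4 groups, no low-count filter gave 17 called members against 11. For sgUFM1 against the controls for sgUFL1, no filter gave 10 against 6. For set 1 against those controls, where 1 member was called, RLE scaling, the replicate block, GC and length offsets, and block and offsets together gave 0, no filter 6, DESeq2 5 and the 12-library model 7. For sgUFM1 against set 2, the 12-library model gave 4 against 8. For sgUFM1 against set 1, where 1 was called, scaling without the mitochondrial genes, the replicate block and the 12-library model gave 0, and GC offsets with or without the block gave 2. For set 1 against set 2, with 0 called, no filter gave 1, DESeq2 2, the replicate block 3 and block with offsets 2. The cause of these changes was not tested.

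Leaving out 1 library at a time gave 8 to 14 called members among the 4 groups, 0 to 9 for sgUFM1 and 0 to 4 for set 1 and 5 to 10 for set 2 against the controls for sgUFL1, 5 to 11 for sgUFM1 against set 2, 0 to 7 for sgUFM1 against set 1 and 0 to 3 for set 1 against set 2. The highest counts of the last 2 pairs came without set 1 replicate 1. Across these omissions the adjusted p of the exact permutation test was 0.0036 to 0.0118 for the whole mitochondrial share, 0.00214 to 0.0118 for the mRNA share, 0.0254 to 0.0637 for the rRNA share and 0.00351 to 0.501 for the ratio of tRNAs to mRNAs.

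The replicate numbers are not given as a pairing: correlations of the deviations of libraries with the same number ran from -0.212 to 0.378. The ends of that range came from set 1 with the controls for sgUFL1, at 0.372, 0.378 and -0.212 for replicates 1, 2 and 3. The block moved ND4L in set 1 against the controls for sgUFL1 to an adjusted p of 0.0549 (log2 difference -0.65) and ND3 in sgUFM1 against set 1 to 0.0889 (-0.32). Block and GC offsets together moved TP in sgUFM1 against the controls for sgUFL1 to 0.0553 (-0.43). Of the single-gene values recomputed for called members, 445 stayed past the threshold and 86 were no longer past it. Direction could be compared for the pairwise values alone, and none of those reversed. With GC and length offsets the genes called fell to 1070 against 5438 for set 2 against the controls for sgUFL1. At the counts deposited, 9 of 22 tRNAs fell under the filter and were not tested.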
